A study of Mus musculus with 12 samples.

Results

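Gas7, Slurp1, Flnc, Dysf, Plec, Cd248, Nipal1, Spon2 and Aqp5 are 9 mouse genes whose signal in cells given thyroid hormone and glucocorticoid together lay below what each hormone alone would predict. They were taken by their gene symbol, and were listed because of their values on these same 12 arrays, so those values are given here as a description and carry no test. They are 9 of the 19057 genes that the annotation names for this array, with 32 of its 45281 probes. Of these, 14 probes reached the limit of detection on at least 3 of the 12 arrays, among 17746 probes that did so, and every gene had at least 1 such probe.

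The cells were HT-22, an immortalized line derived from mouse hippocampus. They received 30 nM T3 (the thyroid hormone triiodothyronine), 100 nM CORT (corticosterone, the main glucocorticoid of rodents), both hormones (T3+CORT) or vehicle in serum-free medium for 4 h. All 4 groups, vehicle included, held 0.03% DMSO and 0.001% ethanol, and the cells had been grown in serum stripped of thyroid and steroid hormones. Each group had 3 arrays from treatments done in triplicate in this 1 line, and p-values measure only the spread between these arrays.

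T3 and CORT act through nuclear receptors, ligand-activated transcription factors that bind DNA near their target genes. Thyroid hormone receptors sit on DNA with or without hormone, whereas the glucocorticoid receptor enters the nucleus after binding its ligand and can raise some genes and lower others. Among its rules for synergy, the paper compared the signal under T3+CORT with the sum of those under T3 and under CORT. Here independent effects of both receptors are instead taken to multiply, which on the log2 scale means that they add up. The departure from that sum is the interaction, computed here from the log2 signals as that under T3+CORT, less those under CORT and under T3, plus that under vehicle. A negative interaction says that the signal with both hormones was below the sum, whether or not it was below vehicle.

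The deposited signals are linear normalized intensities with a limit of detection of 87.0, and they were taken to the log2 scale. Between 16520 and 16544 probes lay above that limit on each array, and the array medians were 71.2 to 71.3. The number of arrays limited the precision, with a median 95% confidence half-width of 0.22 log2 units for a difference between groups and 0.30 for the interaction. The paper describes the cells as a neuronal line from adult mouse hippocampus. Of 11 neuronal markers with a probe, 8 were below the limit on every array, among them Map2, Rbfox3, Snap25 and the neurofilament genes Nefl and Nefm. The third neurofilament gene, Nefh, had no probe. Only the enolase gene Eno2 was above the limit on all arrays, with a mean of 154. Of 8 glial and immune markers with a probe, 7 were below it on every array, Gfap among them. Of 10 fibroblast and pericyte markers 9 were above the limit on all arrays. The summed signal of those 10 markers was 24892 to 27565 under vehicle, 26175 to 30216 under T3, 26995 to 27597 under CORT and 23915 to 25990 under T3+CORT, so that the T3+CORT arrays lay below both single hormone groups. That sum is of linear signals and rests mostly on Vim and Acta2, at means of 13383 and 7234 over all arrays. By gene, T3+CORT differed from CORT by -0.30 log2 units at Pdgfra, -0.23 at Cspg4, -0.22 at Vim and -0.15 at Thy1. It differed by -0.09 at Pdgfrb and -0.005 at Col1a1, and by 0.05 at Col3a1, 0.03 at Acta2 and 0.02 at Col1a2. By limma none of the 9 tested fibroblast and pericyte markers was called in the interaction (unadjusted p under 0.05: 0) or in T3+CORT against CORT (unadjusted: 3 lower, 0 higher). The part of these marker levels in the results below was not tested.

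Over all 17746 tested probes the interaction had a median of 0.01, a 1st percentile of -0.41 and a 99th percentile of 0.36. It reached -1.23 on the negative side and 0.66 on the positive side. In the limma fit 20 probes were called at an adjusted p under 0.05, which is 0.113% of those tested, and all 20 were negative. At an unadjusted p under 0.05 there were 502 positive and 610 negative probes (2.83% and 3.44%). Probes of the 9 genes made up 12 of the 20, as their choice fixed, so nothing is read from that count. The other 8 were Ccl7, Angptl4, Popdc3, Plin4, Sox9, Col6a2 and 2 probes without a symbol. Of 19 alternatives the call was kept in 16 at Popdc3, 11 at Angptl4, 10 at Ccl7, 9 at Sox9, 6 at Col6a2 and 5 at Plin4. The count of 20 fell to between 2 and 11 when any 1 of the vehicle, CORT or T3+CORT arrays was left out, and was 15 to 20 without 1 of the T3 arrays.

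**Figure D1:**
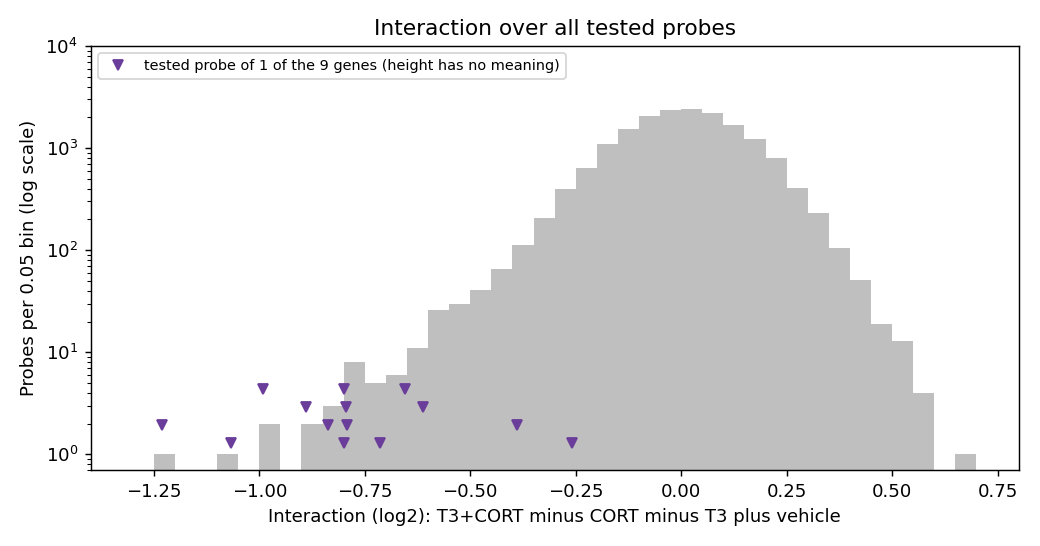
Number of tested probes (log scale) by their interaction on the log2 scale, in bins 0.05 wide, with the 14 tested probes of the 9 genes as triangles. The 14 triangles run from -1.23 to -0.26, and 12 of them lie at -0.61 or below, in the sparse left tail.

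Among the 14 tested probes of the 9 genes the interaction ran from -1.23 to -0.26 with a median of -0.80. The weakest were the second probes of Cd248 and Dysf, at -0.39 and -0.26, and the next was Aqp5 at -0.61. A negative interaction was reached in different ways. Gas7 and Slurp1 were high under CORT and came back toward vehicle when T3 was added. Dysf, Flnc and the brighter Plec probe were higher under either hormone and at or below vehicle under both. Aqp5, Nipal1 and the brighter Cd248 probe were within 0.21 log2 units of vehicle under a single hormone, with Nipal1 wholly above it under T3 and Cd248 under CORT, and were wholly below it under both. Spon2 was high under T3 and lowest under both.

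**Figure D2:**
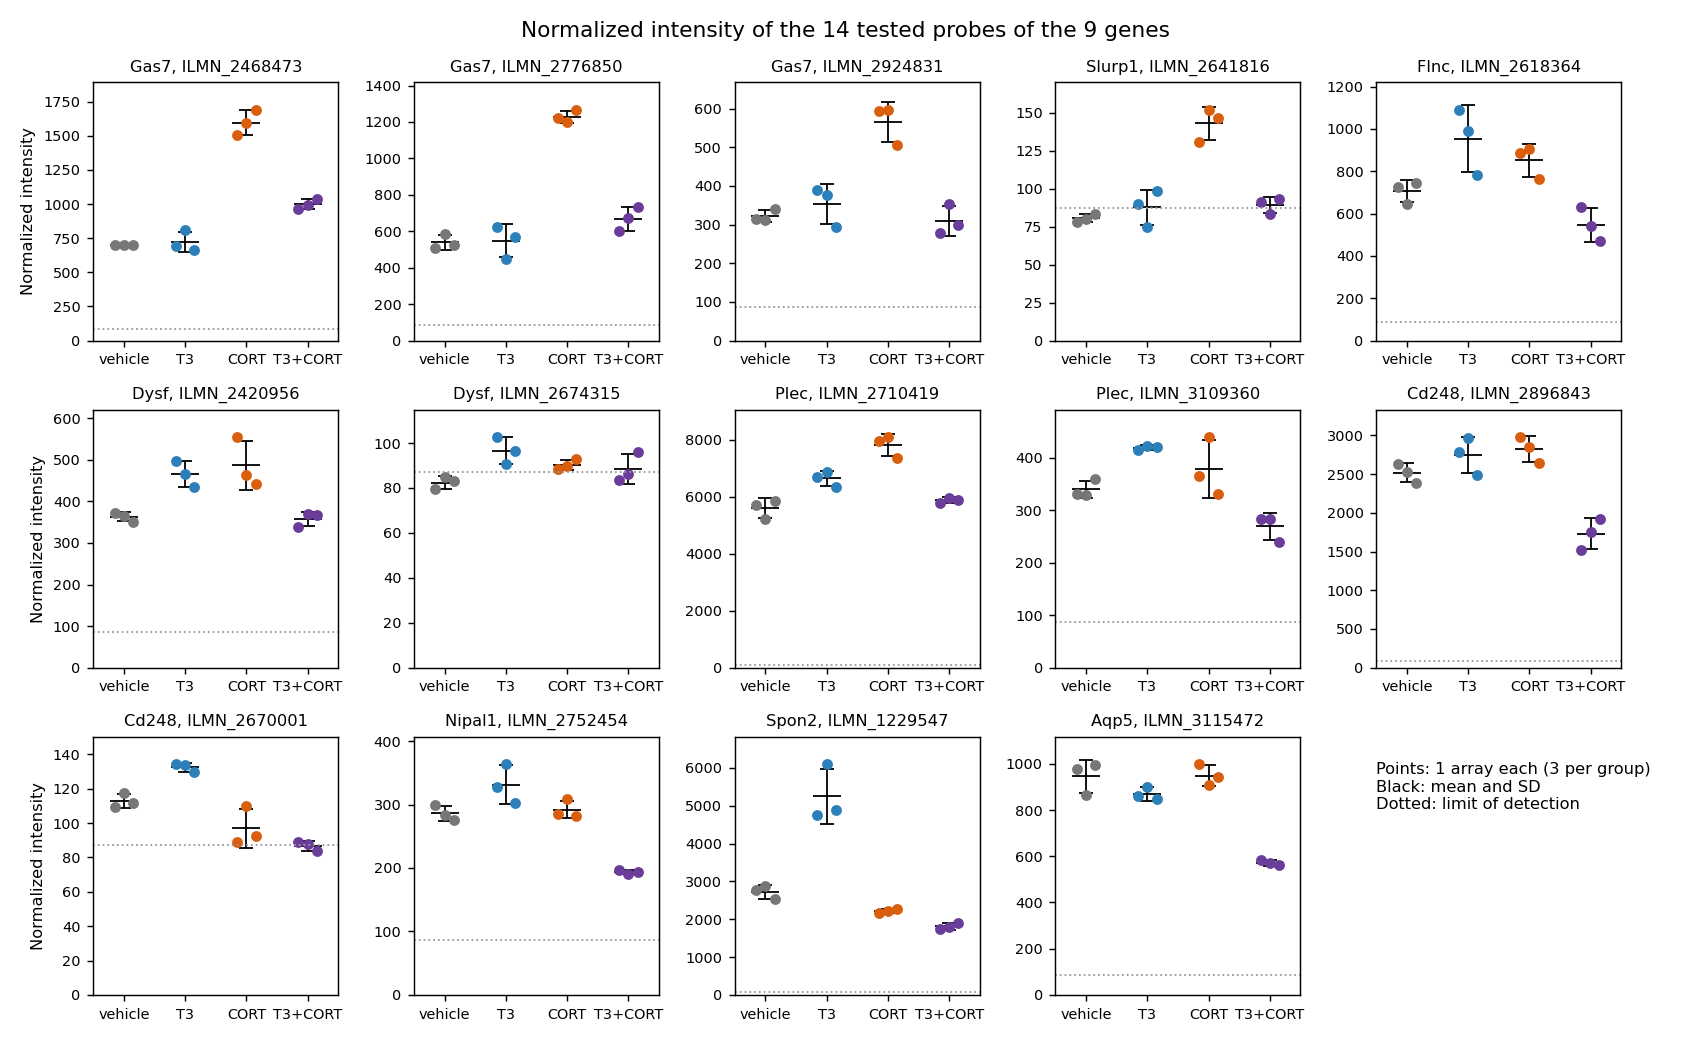
Normalized intensity (linear axis from 0) of the 14 tested probes under vehicle, T3, CORT and T3+CORT. Points are single arrays, black lines the mean and SD of 3 arrays, and the dotted line the limit of detection at 87.0. Gas7 and Slurp1 peak under CORT, Spon2 peaks under T3, and Aqp5, Nipal1 and the brighter Cd248 probe have their lowest 3 arrays under T3+CORT.

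Gas7 encodes an F-BAR protein that binds membranes and actin, is linked with neurite outgrowth, and takes its name from growth-arrested cells. It lies on chromosome 11 (GRCm38.p6, chr11:67453257-67688992). At its brightest probe (ILMN_2468473) the signal was 698.8, 701.8 and 700.3 under vehicle and 693.3, 807.1 and 663 under T3. It was 1507, 1594.3 and 1688.6 under CORT and 963.9, 993.7 and 1039.3 under T3+CORT. Every CORT array was thus above every other array, the T3+CORT arrays lay between CORT and the rest, and vehicle and T3 overlapped. The group means were 700.3 ± 1.5, 721 ± 76.0, 1597 ± 90.8 and 999 ± 38.0 (SD, n = 3 each). CORT alone gave 1.19 ± 0.09 log2 units over vehicle (SE of the fit), T3 alone 0.04, and both 0.51. Adding T3 to CORT left 62.6% of the CORT signal, and the interaction was -0.71 ± 0.12.

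The other 2 tested Gas7 probes were also highest under CORT and differed in how far the signal came back with T3. At ILMN_2776850 the mean signal was 539.6 ± 41.2 under vehicle, 546.7 ± 90.7 under T3, 1229 ± 33.2 under CORT and 669 ± 66.1 under T3+CORT, an interaction of -0.89 ± 0.16. At ILMN_2924831 the means were 322 ± 14.9, 353 ± 51.1, 566 ± 51.1 and 310.2 ± 39.0, an interaction of -0.99 ± 0.16. At this last probe the T3+CORT arrays (278.6, 353.8 and 298.1) overlapped the vehicle arrays (314.7, 313.1 and 339.6), whereas at the other 2 they were all above vehicle. As a share of the CORT signal, T3+CORT was 54.3% and 54.7% at these probes. The fourth probe, ILMN_2683424, was at 53.4 to 67.4 and below the limit on all 12 arrays. Over the 12 arrays, the genes whose log2 signal was most like that of Gas7 were Pgpep1 (r = 0.98), Gsta1 (r = 0.98) and Psca (r = 0.98). These correlations and those for the genes below are descriptions over 12 arrays that share the 4 treatments.

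Slurp1 encodes a small secreted protein of the Ly6/uPAR family that modulates nicotinic acetylcholine receptors and is mutated in a human skin disorder. Its gene is at chr15:74726644-74728023. The only probe was dim, with 78.3, 79.8 and 83.3 under vehicle, 89.8, 74.8 and 98.1 under T3, 130.7, 151.7 and 146.3 under CORT and 91.1, 83.1 and 93 under T3+CORT. The 3 CORT arrays stood clear of the other 9, and all 3 vehicle arrays were below the limit of detection, as were 1 of the T3 and 1 of the T3+CORT arrays. Against that limit the CORT mean of 143 ± 10.9 was at least 1.64-fold higher than vehicle. The T3+CORT mean of 89.1 ± 5.25 was 62.4% of CORT. The fitted interaction of -0.79 ± 0.14 depends on signals below the limit, and was -1.08 after normexp background correction. The pattern most like it over the arrays was that of Gas7 at ILMN_2776850 (r = 0.95), followed by Tiam2 and Fstl1 (r = 0.94 each).

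Dysf encodes dysferlin, a calcium-binding membrane protein that helps to reseal the torn plasma membrane and whose loss causes muscular dystrophy. The gene is at chr6:84008361-84211060. At ILMN_2420956 the signal was 372.4, 364.5 and 351.1 under vehicle, 497.3, 466.2 and 435.3 under T3, 554.5, 463.6 and 443 under CORT and 338.3, 368.8 and 366.5 under T3+CORT. Both single hormones lay above vehicle with no overlap, by 0.36 log2 units under T3 and 0.42 under CORT (SE 0.09 each). With both hormones the mean of 358 ± 17 was back at the vehicle mean of 363 ± 10.8, a difference of -0.02. The interaction was -0.80 ± 0.13, and the signal was 57.5% of that expected from the sum of the single effects. A second probe, ILMN_2674315, lay near the limit at 79.4 to 102.6 and was above it on 7 of 12 arrays and on none of vehicle. Against the limit it was at least 1.11-fold higher under T3 and at least 1.04-fold under CORT, and its fitted interaction of -0.26 ± 0.11 depends on signals below the limit. The remaining 3 Dysf probes reached the limit on 2 arrays or fewer. The nearest patterns were those of Nrde2 (r = 0.92), Sh3pxd2b (r = 0.88) and Trappc8 (r = 0.88).

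Flnc encodes filamin C, a cross-linker of actin filaments in muscle and at cell adhesions, and is found at chr6:29433153-29461889. Its signal at ILMN_2618364 was 727.2, 647.3 and 743 under vehicle, 1089.5, 991 and 780.7 under T3, 887.8, 905.7 and 763 under CORT and 630.9, 539.9 and 471.5 under T3+CORT. The 3 T3+CORT arrays were the lowest of all 12, while both single hormones lay wholly above vehicle. T3 alone gave 0.42 ± 0.13 log2 units over vehicle, CORT alone 0.27 ± 0.13 and both -0.37 ± 0.13. T3+CORT was 47.7% of the level expected from the sum, an interaction of -1.07 ± 0.18. The second Flnc probe was below the limit on all arrays, at 53.0 to 64.0. The nearest patterns were Phldb1 (r = 0.93), the dimmer Plec probe (r = 0.91) and Matn2 (r = 0.89).

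Plec encodes plectin, a large linker that ties intermediate filaments to actin, to microtubules and to adhesion sites, and lies at chr15:76170974-76231378. The bright probe ILMN_2710419 read 5721.2, 5202.9 and 5849.2 under vehicle, 6693.9, 6872.3 and 6338.2 under T3, 7943.4, 8083.1 and 7360 under CORT and 5757.2, 5965.8 and 5894.2 under T3+CORT. T3 and CORT were each above vehicle without overlap, by 0.25 and 0.48 log2 units (SE 0.07 each), and T3+CORT overlapped vehicle at a difference of 0.07. The interaction was -0.66 ± 0.10. The second tested probe, ILMN_3109360, differed in where T3+CORT ended, with means of 340 ± 16.7, 420 ± 4.2, 379 ± 55.1 and 269 ± 25.6 in the same order. There the T3+CORT arrays were the lowest of the 12, at 284.4, 283.8 and 239.7, and the interaction was -0.79 ± 0.15. The other 12 Plec probes, which the annotation assigns to several plectin transcripts, were at 51.7 to 88.9 and reached the limit on 1 array or none. Zyx (r = 0.93), Plxna2 (r = 0.91) and Gas7 at ILMN_2924831 (r = 0.91) followed the bright Plec probe most closely.

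Cd248 encodes endosialin, a surface glycoprotein with a C-type lectin domain that marks pericytes and fibroblasts, and lies at chr19:5068078-5070640. At ILMN_2896843 the arrays read 2631.1, 2526.1 and 2388.4 under vehicle, 2789.2, 2961.9 and 2493.6 under T3, 2976.9, 2853.8 and 2645.9 under CORT and 1525.6, 1747.8 and 1918.2 under T3+CORT. The T3+CORT arrays lay below the other 9. T3 and CORT were within 0.17 log2 units above vehicle, while both together were at -0.54 ± 0.09, or 68.6% of vehicle. The interaction was -0.84 ± 0.13. The dimmer probe ILMN_2670001 showed another order, with means of 113 ± 4.18 under vehicle, 133 ± 2.55 under T3, 97.1 ± 11.3 under CORT and 86.9 ± 2.97 under T3+CORT. There the CORT and T3+CORT arrays overlapped, and the interaction was -0.39 ± 0.12. In bulk RNA, fewer cells of a type and less RNA per cell cannot be told apart, which holds for this marker and for the other genes. The brighter probe was most like Nipal1 (r = 0.92), Eif6 (r = 0.91) and Zfp36l1 (r = 0.89).

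Nipal1 encodes a magnesium transporter of the NIPA family and lies at chr5:72647796-72671078. Its probe read 299.7, 283 and 276.4 under vehicle, 327.1, 363.4 and 303.1 under T3, 285.5, 308.3 and 282.6 under CORT and 197, 190.8 and 193 under T3+CORT. CORT alone left it at 0.03 ± 0.09 log2 units from vehicle and T3 alone at 0.21 ± 0.09. With both hormones it was at 67.6% of vehicle, and the 3 arrays lay close together and far below the other 9. The interaction was -0.80 ± 0.12. The nearest patterns were Mrgprf (r = 0.95), the water channel gene Aqp1 (r = 0.94) and Lmna (r = 0.94).

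Aqp5 encodes a water channel of salivary, lacrimal and airway glands, and lies at chr15:99591028-99594829. The arrays read 977, 865.5 and 997.2 under vehicle, 859.7, 901.6 and 846.3 under T3, 998.1, 907.4 and 942.7 under CORT and 582.8, 569 and 560.1 under T3+CORT. Vehicle overlapped both single hormones, the T3 arrays lay just under the CORT arrays, and every T3+CORT array was far below them all. CORT alone was at 0.01 ± 0.08 log2 units from vehicle, T3 alone at -0.12 and both at -0.73, which is 60.4% of vehicle. At the brightest probe of each gene, it was the one nearest to no response to either single hormone. Its interaction of -0.61 ± 0.12 was close to its difference from T3 alone, also -0.61. Zfp36l1 (r = 0.95), Gpr137b-ps (r = 0.94) and Tubb2b (r = 0.92) had the patterns most like it.

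Spon2 encodes mindin, a secreted matrix protein of the F-spondin family that serves as an integrin ligand in innate immunity, and in rat promotes outgrowth of embryonic hippocampal neurons. It lies at chr5:33213518-33218254. Its signal at ILMN_1229547 was 2769.4, 2879.1 and 2523.1 under vehicle, 4766.3, 6094.3 and 4875.2 under T3, 2152.1, 2220.6 and 2260.1 under CORT and 1733.6, 1791.3 and 1898.1 under T3+CORT. The 4 groups did not overlap anywhere, in the order T3, vehicle, CORT and T3+CORT. T3 alone gave 0.94 ± 0.09 log2 units over vehicle, CORT alone -0.30 and both -0.59. With CORT present, adding T3 moved the signal to 81.7% of CORT, whereas without CORT it moved it to 191.6% of vehicle. The interaction of -1.23 ± 0.13 was the most negative of all tested probes, and the T3+CORT level was 42.6% of the sum on the log2 scale and 38.2% of that on the linear scale. The second probe was below the limit throughout, at 63.9 to 83.6. Loxl1, Slco2a1 and Sertad1 (r = 0.95 each) had the patterns most like it.

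**Figure D3:**
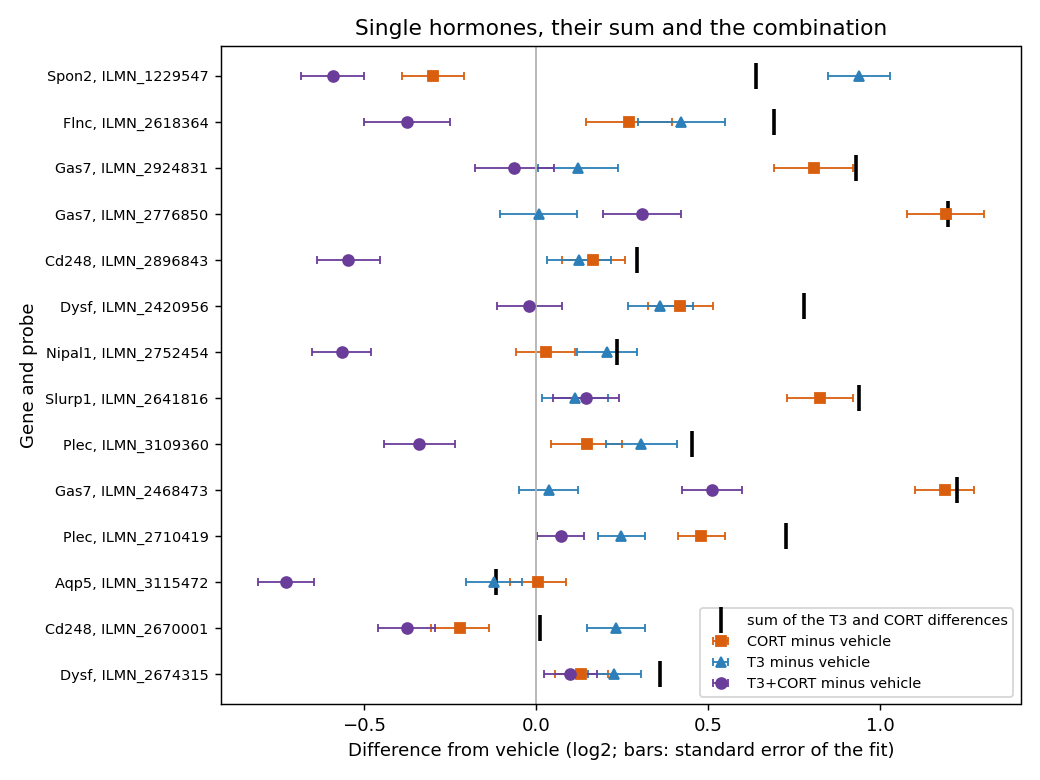
Log2 difference from vehicle of T3, CORT and T3+CORT for the 14 tested probes, with bars for the standard error of the fit and a black tick at the sum of both single differences. T3+CORT lies left of the tick at every probe, by 1.23 at Spon2 and by 0.26 at the dimmer Dysf probe.

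The overlap of the arrays can be counted without a model. T3+CORT lay wholly below CORT at 12 of the 14 probes, where 8.13% of all tested probes did so, and wholly below T3 at 9 of 14, against 18.3%. It lay wholly below vehicle at 7 of 14 (background 22.9%) and was the lowest group of all at 6 of 14 (2.47%), namely Flnc, Nipal1, Spon2, Aqp5, the dimmer Plec probe and the brighter Cd248 probe. T3 alone was wholly above vehicle at 8 of 14 probes (5.07%) and at none below (4.61%), and CORT alone was wholly above vehicle at 9 (19.5%) and below at 1, Spon2 (22.6%). Since the genes were chosen on these groups, the counts stand beside the background shares as a description. The brighter 2 Gas7 probes were the only ones with T3+CORT wholly above vehicle (20.5%).

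The difference made by T3 can be set side by side with and without CORT. Without CORT, T3 differed from vehicle by between -0.12 (Aqp5) and 0.94 (Spon2), and 13 of the 14 differences were positive. With CORT present all 14 were negative, from -0.88 at Gas7 to -0.03 at the dimmer Dysf probe. Across all tested probes T3 alone gave few calls, 14 higher and 2 lower (0.0789% and 0.0113%, 0.0902% in all), and T3+CORT against CORT gave 25 higher and 74 lower (0.141% and 0.417%). CORT against vehicle gave 1751 higher and 1925 lower (9.87% and 10.8%). These counts moved when 1 array was left out, from 16 to between 8 (without vehicle replicate 3) and 27 (without T3 replicate 2) for T3 alone. For T3+CORT against CORT the count of 99 moved to between 42 (without T3+CORT replicate 2) and 179 (without T3 replicate 2), and was 57 or fewer without any 1 of the CORT or T3+CORT arrays. For CORT against vehicle it moved from 3676 to 2269 and 2354 without vehicle replicate 1 or 3, and to 4932 at most.

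The promoter table of RefSeq (GRCm38.p6) held 6 promoters for 4 of the genes, Flnc, Dysf, Nipal1 and Aqp5. The 250 bases before each start were searched on both strands for the half-sites AGAACA (glucocorticoid receptor) and AGGTCA (thyroid hormone receptor), for TGANTCA (AP-1) and for the full elements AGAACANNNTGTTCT and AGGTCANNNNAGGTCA. Dysf is shown because it alone held matches. The upstream promoter (chr6:84008348-84008597, plus strand) had 1 AGGTCA at -100 to -95 from the start, and the downstream promoter (chr6:84019136-84019385, plus strand) had AGAACA at -151 to -146 and, on the other strand, at -211 to -206. Matches are in capitals, 5′ to 3′.
Dysf upstream promoter: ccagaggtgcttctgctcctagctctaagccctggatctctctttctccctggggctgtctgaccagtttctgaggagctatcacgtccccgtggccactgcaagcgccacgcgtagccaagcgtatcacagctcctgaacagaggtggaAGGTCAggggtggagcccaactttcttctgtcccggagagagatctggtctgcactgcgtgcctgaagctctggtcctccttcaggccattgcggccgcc
Dysf downstream promoter: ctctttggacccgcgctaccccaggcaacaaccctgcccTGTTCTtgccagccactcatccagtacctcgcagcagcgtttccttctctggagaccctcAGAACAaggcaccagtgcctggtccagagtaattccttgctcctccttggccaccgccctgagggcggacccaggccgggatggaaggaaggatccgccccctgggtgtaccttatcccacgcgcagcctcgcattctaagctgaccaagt
Among 32851 promoters of this length 16.1% held AGAACA, 14% AGGTCA and 6.75% TGANTCA, and the full elements were in 0.00913% and 0.0152%. None of the 6 promoters held TGANTCA or a full element. A match here is a description of these letters only, and each of the first 3 motifs is short enough to be found in many promoters.

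Relatives and partners of the 9 genes were examined to see how far the pattern reached. The lists were written from general knowledge, with 1 probe per gene, that with the highest mean signal. Of 191 genes 173 had a probe and 95 were tested. By limma none of the 95 was called in the interaction (unadjusted p under 0.05: 2 higher, 6 lower), and their median was -0.08 against 0.01 over all tested probes. In simulated data the fit called only 38% of negative interactions of 0.5 log2 units, so a missing call does not show that such an interaction is absent. In T3+CORT against CORT 1 was called, Psca, at -0.58 ± 0.09 (adjusted p = 0.0051). In CORT against vehicle 19 were higher and 12 lower, 32.6% against 20.7% of all tested probes. All tested probes include dimmer probes of a gene as well. Such shares, here and for the lists below, thus compare unlike sets of probes. In T3 against vehicle limma called none of the 95 (unadjusted: 3 higher, 1 lower).

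Of 20 listed genes with a probe in the Ly6/uPAR family, to which Slurp1 belongs, 7 were tested. All 7 were called in CORT against vehicle, 6 higher and 1 lower, with a median of 0.47. Over all tested probes 20.7% were called. Psca, a glycolipid-anchored surface protein, rose by 1.26 log2 units (adjusted p = 7.44e-08), Cd59a, an inhibitor of complement, by 0.69, Ly6c1 by 0.65 and Ly6e by 0.47. Plaur, the urokinase receptor, was the 1 that fell, by 0.42, and is named after its value was seen. The call at a seventh gene, Lypd6b, was lost in 10 of 18 alternatives. Psca shared the Slurp1 pattern in part, with means of 94.6 under vehicle, 93.6 under T3, 228 under CORT and 152 under T3+CORT, but its interaction of -0.56 was not called (limma adjusted p = 0.168). Both of its calls were kept when any 1 array was left out.

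Psca is also a neighbour of Slurp1, at chr15:74714839-74717065 and 9579 bases away. In a window of 100 kb around each of the 9 genes, chosen after the values were seen, 26 other genes were tested. None was called in the interaction by limma, and the median was 0.01. At an unadjusted limma p under 0.05, 3 were lower and 0 higher, against 3.44% and 2.83% of all tested probes. The most negative were Psca (-0.56), Rin1 near Cd248 (-0.42) and Asic1 near Aqp5 (-0.39), and the most positive was Gpaa1 near Plec (0.29). CORT against vehicle was called higher at 5 of the 26 and lower at 2, against 9.87% and 10.8% of all tested probes. One of the lower was Calu near Flnc, which fell by 0.34 at its brightest tested probe and by 0.35 at ILMN_1228287. At a further Calu probe, ILMN_1216590, the signal rose by 0.31 (limma adjusted p = 0.0311). Nearer to Slurp1 lay Them6, which CORT raised by 0.28 (adjusted p = 0.0416, lost in 8 of 19 alternatives), and farther off Lynx1, a Ly6/uPAR brake on nicotinic receptors, which CORT raised by 0.40 (adjusted p = 0.00273). With T3 added to CORT these neighbours differed from CORT alone by -0.02 and 0.14, neither called. The fourth tested neighbour of Slurp1, Gml2, differed by -0.06 under CORT (adjusted p = 0.699). Gas7 and Spon2 had no tested neighbour in the window.

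Of 16 tested ferlins, annexins and membrane repair genes, the company of Dysf, CORT raised 5 and lowered 1 (37.5%, against 20.7% of all tested probes). Anxa4 rose by 1.15, the calpain Capn1 by 0.64, the caveolae protein Cav1 by 0.56 and the annexin partner S100a10 by 0.50, and Anxa6 fell by 0.39. In T3+CORT against CORT this list had a median of -0.18 with none called by limma (unadjusted: 6 lower, 0 higher). The calls at Anxa6 and S100a10 were lost, at adjusted p up to 0.129 and 0.0773, when single vehicle or CORT arrays were left out.

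Of 19 tested actin cross-linkers, plakins and intermediate filament genes, relatives of Flnc and Plec, CORT raised 3 and lowered 1, a share of 21.1% that is near the 20.7% of all tested probes. These were the actin bundler Pls3 (0.53), the alpha-actinin Actn1 (0.45) and the hemidesmosome integrin chain Itgb4 (0.42), and the spectrin Sptbn1, which fell by 0.33. Only the call at Actn1 was kept when any 1 array was left out. The list had a median interaction of -0.15 with none called (limma, unadjusted: 2 lower, 0 higher). Among 13 F-BAR relatives of Gas7, CORT raised Fchsd2 by 0.30 and lowered Fchsd1 (fell by 0.56), Fnbp1l (fell by 0.40) and Fer (fell by 0.31), or 30.8% of the list, and Fchsd1 alone kept its call when any 1 array was left out. The one rise among them, 0.30, stands beside differences of 0.81 to 1.19 at the 3 tested Gas7 probes.

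Relatives of Cd248, Nipal1 and Aqp5 showed no call in T3+CORT against CORT by limma (unadjusted: 2 lower among the pericyte genes, 0 among the magnesium transporters and 1 among the aquaporins). Of 11 tested group XIV lectins and pericyte genes near Cd248 in function, the growth factor receptor Pdgfra rose by 0.78 and the basement membrane collagen Col4a1 fell by 0.37 with CORT, and these 2 are 18.2% of the list, below the 20.7% of all tested probes. Of 12 magnesium transporters CORT raised Cnnm2 (0.30) and lowered Slc41a2, Nipa2 and Mmgt2, which fell by 0.50, 0.46 and 0.39 (33.3% of the list called). Of 5 tested aquaporins none was called in any comparison by limma, nor at an unadjusted p in the other 3 comparisons. That list takes the brightest probe of each gene, which for Aqp1 had an interaction of -0.04, while the Aqp1 probe that followed Nipal1 (ILMN_2980661) had one of -0.44 (limma adjusted p = 0.343) and ILMN_2980663 had one of -0.26. Of 6 thrombospondin repeat genes related to Spon2, Thbs2 rose by 0.33 and Thbs1 and Unc5b each fell by 0.40 (3 of 6 called). The calls at Cnnm2, Thbs1 and Unc5b were each lost without at least 1 vehicle array, at adjusted p of up to 0.0614, 0.058 and 0.092.

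The probes of the receptor genes were dim, which does not measure the receptor proteins. On vehicle the mean signal was 87.7 for Thra, 51.6 for Thrb, 82.5 for the glucocorticoid receptor gene Nr3c1 and 59.6 for the mineralocorticoid receptor gene Nr3c2, and only Thra was tested. Of 6 tested receptor, cofactor and hormone metabolism genes Rxrb, the partner of many nuclear receptors, was called with CORT at 0.28, and the call was lost without vehicle or CORT arrays 2 or 3, at adjusted p up to 0.0997.

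**Figure D4:**
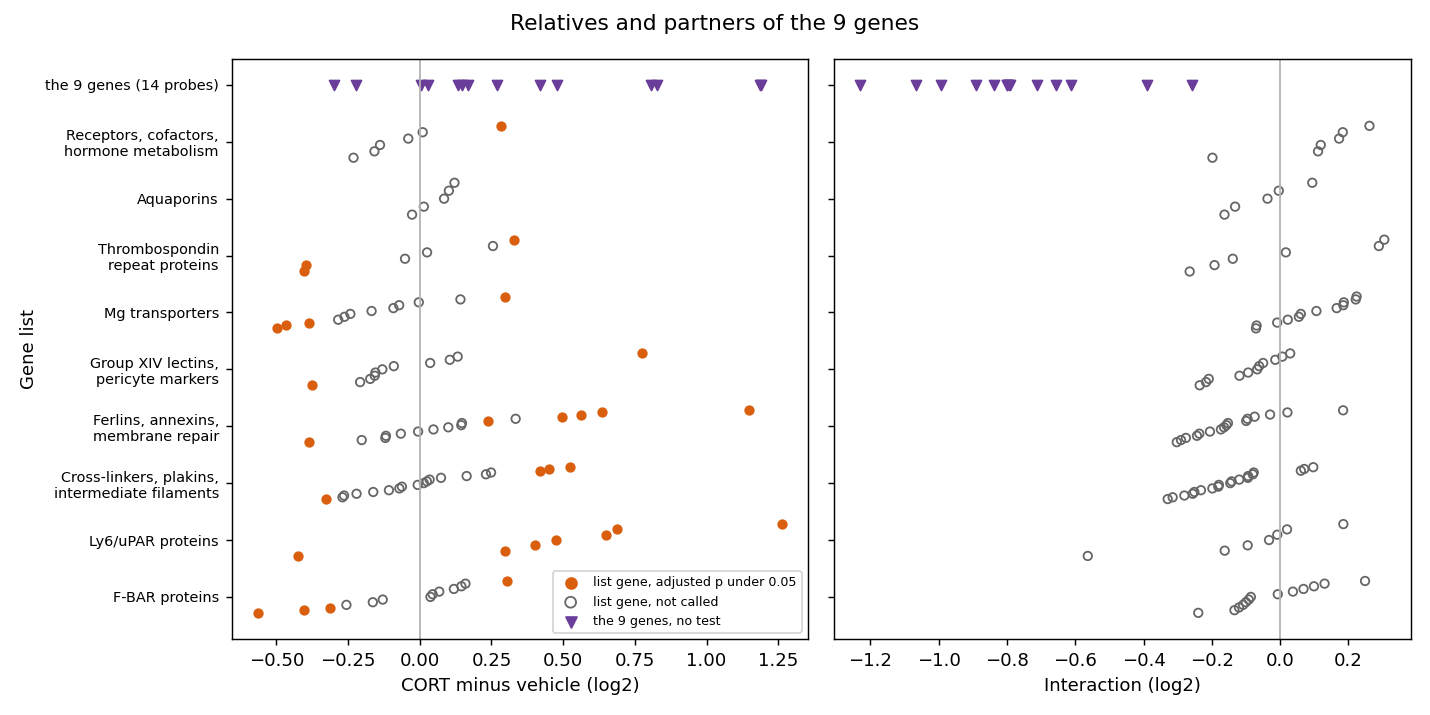
Log2 difference of CORT from vehicle (left) and interaction (right) for the tested genes of each list, filled where the adjusted p was under 0.05, with the 14 probes of the 9 genes as triangles that carry no test. Of the list genes 31 are filled on the left, among them all 7 Ly6/uPAR genes, and none on the right.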

How the data were processed

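RNA of HT-22 cells was measured on Illumina mouse whole-genome bead arrays, 3 arrays for each of 4 groups, grouped by the deposited labels. The normalized intensity values deposited by the authors are linear. For their normalization the paper gives the rank invariant option, with BeadStudio as its software. The 12 arrays differ at any rank by at most 0.5, so the deposited values were already close to quantile normalized. A further quantile normalization left 3675 calls in CORT against vehicle, beside 3676 without it. Which step made the arrays this alike was not tested. The detection p values deposited by the authors come from the table of raw signals. Its 12 signal columns were not used, since their names match no sample label, so no alternative was run on raw signals. A detection p under 0.05 was found for 36.5% to 37.6% of probes in 6 of its 12 detection columns, and for 3.93% to 5.40% in the rest. The limit of detection, 87.0, was set at the rank of the dimmest probe detected in the former 6 columns, and elsewhere it holds only as far as the arrays share a distribution. The stricter limit, at a detection p under 0.01, was 105.

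A model of the 4 group means was fitted to log2 intensity of the 17746 probes at or above the limit on at least 3 arrays, with limma 3.58.1 in R 4.3.3 (lmFit, eBayes with a mean-variance trend, 8 residual degrees of freedom). Adjusted p values are two-sided Benjamini-Hochberg values over these probes. The fit was tested on simulated data, with interactions set below the sum at 50 probes per size. It called 38% of them at 0.5 log2 units, 90% at 0.75 and 100% at 1, and 12 of 17546 unchanged probes. Where a group was below the limit on every array, a fold is a bound against that limit.

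The 9 genes and the gene lists were chosen with earlier results of these data known. Named are the 9 genes at all probes and up to 4 called genes per list with the largest change. Also named are the 3 genes most correlated with each of the 9, the 5 most negative probes with a symbol, and the receptor genes. The other genes called in the interaction, Plaur, Anxa6, Lypd6b, the neighbours of Slurp1, Rin1, Asic1, Gpaa1 and Calu were named after their values were seen. Symbols come from the platform annotation (34885 probes with 1 symbol, 18 with several, 10378 with none), positions and promoters from RefSeq tables of GRCm38.p6, and no genome was used. The alternatives were other filters, normexp background correction with an offset of 16, quantile normalization, no trend, array weights, a replicate block, leaving out each array, a t-test with unequal variances for the comparisons of 2 groups (the methods name it only for T3+CORT against the sum of the single hormones) and the linear scale.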

Additional observations from a re-analysis of the deposited data

Results flagged for a closer look

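Results were listed here when all arrays moved one way under a hormone alone and all moved the other way when the second hormone was present. The difference between both directions was not tested for these genes, because they were chosen on it. All T3 arrays lay above all vehicle arrays while all T3+CORT arrays lay below all CORT arrays at Flnc (interaction -1.07), the brighter Dysf probe (-0.80), both tested Plec probes (-0.66 at the bright one and -0.79 at the dim one), Nipal1 (-0.80) and Spon2 (-1.23). All CORT arrays lay above all vehicle arrays while all T3+CORT arrays lay below all T3 arrays at Flnc (-1.07), the brighter Dysf probe (-0.80), the bright Plec probe (-0.66) and the brighter Cd248 probe (-0.84). Flnc, Dysf and the bright Plec probe met both descriptions.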

How the results depend on the processing

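The interaction of the 14 probes, on whose sign the genes were chosen, is described here without support drawn from it. For these probes 16 alternatives were run, array weights not among them, and 224 of 224 values were negative. The replicate block cannot move them in this balanced design, and quantile normalization hardly can on arrays that share a distribution. Their median interaction of -0.80 ranged from -0.86 to -0.75 over these 16 alternatives (-0.84 to -0.75 when 1 array was left out). At 6 of the 224 the value moved by more than the replicate spread, to -1.08 at Slurp1, -0.38 at the dimmer Dysf probe and -0.53 at the dimmer Cd248 probe with normexp, to -1.03 at Gas7 ILMN_2776850 and -1.12 at Spon2 without T3 replicate 2, and to -1.39 at Spon2 on the linear scale. The interaction called 20 probes, 59 with array weights (3 higher, 56 lower), and 2 to 20 when 1 array was left out. The count was 7, 2 and 4 without vehicle replicate 1, 2 or 3, 10, 2 and 11 without CORT replicate 1, 2 or 3, and 7, 3 and 5 without T3+CORT replicate 1, 2 or 3. T3+CORT against CORT called 99 probes, 224 with array weights, 0 by a t-test with unequal variances (1326 unadjusted; the study used such a test only for T3+CORT against the sum of the single hormones), and 42 to 179 when 1 array was left out, the highest without T3 replicate 2. CORT against vehicle called 3676, 261 by that test, 2269 without vehicle replicate 1, 2354 without vehicle replicate 3 and 2269 to 4932 over all arrays left out. T3 against vehicle called 16, 61 with array weights, 0 by the same test (643 unadjusted), 8 without vehicle replicate 3, 27 without T3 replicate 2 and 8 to 27 overall. T3 replicate 2 had the lowest array weight, 0.281. The causes of these moves were not tested. The raw-signal alternative was not run, because no raw column could be tied to a sample. The related lists had 0 calls in the interaction under all 20 alternatives. Of 45 single calls at other genes 23 were kept throughout, and 122 of 854 values were no longer past the threshold, none with the opposite sign.

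Same replicate numbers gave no clear pairing of the arrays. The correlations of deviations ran from -0.27 to 0.45 over 18 pairs of the same number (median 0.05), 6 of them over 0.1. Over 36 pairs of different numbers they ran from -0.40 to 0.40 (median -0.01). With the replicate number as a block the counts were 18 for the interaction, 98 for T3+CORT against CORT, 3721 for CORT against vehicle and 21 for T3 against vehicle, while the fitted differences are unmoved by construction.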
